A study of Mus musculus with 4 samples.

Results

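The smooth muscle, peritubular myoid and pericyte genes described here are 33 genes of the contractile apparatus, its adhesion sites and its transcription factors, together with surface and signalling genes of pericytes. They were taken by symbol from a fixed list, after the value tables of 4 libraries had been joined on Ensembl gene ID and the IDs matched to mouse symbols. All 33 were found among 27357 gene IDs, and 26 of them reached 1 RPKM (reads per kilobase of gene, scaled to the reads of the library) in at least 2 libraries, the condition for being tested. RNA was sequenced from Leydig cells, the androgen-producing cells between the seminiferous tubules, of male mice in 2 groups. One group was wild type (WT, 2 libraries) and the other carried a knockout of C2orf74 (KO, 2 libraries). Both groups had been fed a high-fat diet for 12 weeks from an age of 8 weeks, so the controls share the diet. The labels do not say which part of the gene was removed, whether the knockout acted in all cells, how the Leydig cells were isolated, or whether each library stands for its own animal. The p-values therefore speak only of the scatter among these libraries, part of which may be technical.

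In smooth muscle the force is made by myosin that pulls on actin, and it is switched on when a calcium-dependent kinase phosphorylates the myosin light chain. Calponin, caldesmon and tropomyosin sit on the actin filament and set how myosin reaches it, while desmin, filamin and alpha-actinin tie the filaments to each other and to the membrane. Serum response factor, with its cofactor myocardin, binds a short DNA element, the CArG box, and drives many of these genes. In the testis the contractile cells are the flat peritubular myoid cells, which wrap the tubules and push the sperm along, and the smooth muscle cells and pericytes of the vessels. Several members, among them the tropomyosins, filamin and alpha-actinin 1, are also used by other cells for their ordinary actin skeleton.

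The depth behind the values, recovered from the steps between them, was 13847807 and 15817093 reads for the WT libraries and 15694389 and 19764004 for the KO libraries. The targeted gene, annotated in the mouse as 1700093K21Rik, was listed at 0 in WT replicate 1 and in both KO libraries and at 0.126 RPKM (4 reads) in WT replicate 2, so it cannot check the labels at this depth. Levels of the 10 listed Leydig cell markers ranged widely, from Cyp17a1, the enzyme that turns progestins into androgens, which was at 0.9002 and 1.90 RPKM in WT and at 2.12 and 1.47 in KO, to the steroid dehydrogenase Hsd3b6, which was at 484 and 459.6 RPKM in WT and at 673 and 819.6 in KO. The side-chain cleavage enzyme Cyp11a1 was at 415 and 402 RPKM in WT and at 360.3 and 299.7 in KO, and the related dehydrogenase Hsd3b1 was at 323 and 261 RPKM in WT and at 410.2 and 449 in KO.

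Only part of the smooth muscle program was present at measurable levels in these libraries. Acta2, the smooth muscle actin, was at 205 and 233 RPKM in WT and at 181 and 165 in KO. The genes that mark differentiated smooth muscle alongside it were far lower on the same scale of RPKM, which is per length. Myh11, the smooth muscle myosin heavy chain, stayed between 1.65 and 2.90 RPKM, and Tagln (transgelin) and Cnn1 (calponin 1) stayed below 1 RPKM in each library. The Tagln level is uncertain, since 62.4% of its exonic bases are shared with a gene on the other strand. Kcnmb1, a subunit of the calcium-activated potassium channel of smooth muscle, and Myocd, the muscle cofactor itself, had between 0 and 15 reads per library. The 5 members with the highest levels, Tpm4, Acta2, Myl6, Flna and Tpm1, made up between 64.1% and 67.9% of the summed member RPKM. Tpm4, Myl6, Flna and Tpm1 also serve the actin skeleton of many other cells. The list is therefore called by its members below, and its summed level is not read as an amount of smooth muscle.

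**Figure D1:**
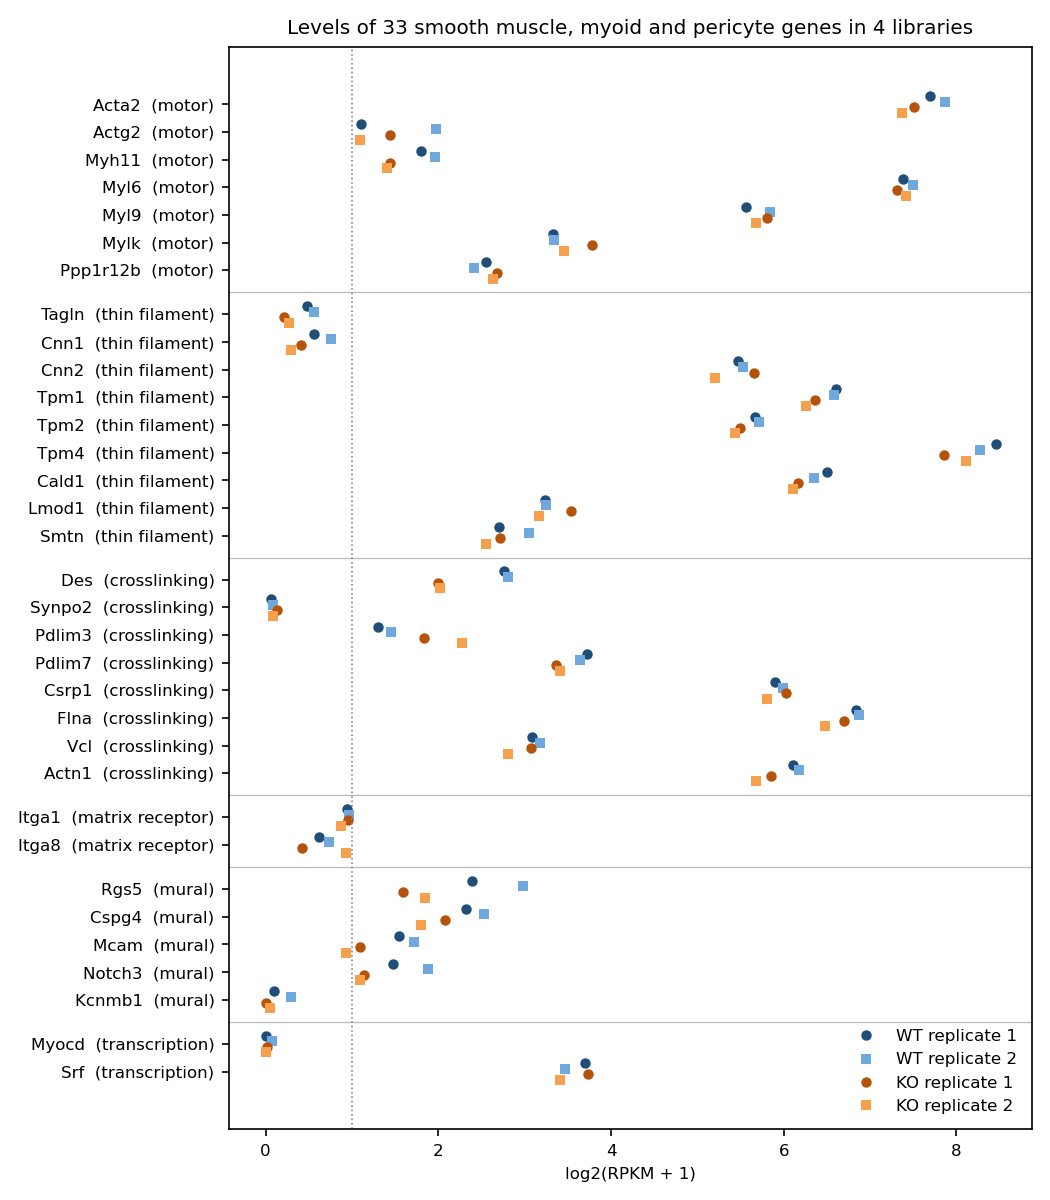
Level of each of the 33 members in each library as log2(RPKM + 1) (x axis), ordered by role (y axis); circles and squares are replicates 1 and 2, blue is WT, orange is KO, and the dotted line stands at 1 RPKM. Acta2, Tpm4 and Myl6 lie at the right, while Tagln, Cnn1, Synpo2, Itga1, Itga8, Kcnmb1 and Myocd lie left of the line in all 4 libraries.

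Between genotypes no member passed the test, and 21 of the 26 tested lay lower in KO (53.8% of all genes did) and 5 higher (46.2% of all genes). Of 26 tested members 0 passed an FDR of 0.05 in limma in either direction, and this holds for 0% of all 12391 genes tested. The smallest adjusted p among members was 0.124, for Des. At an unadjusted p under 0.05, 13 of the 26 were lower in KO, against 7.42% of all genes, and 1 was higher, Pdlim3, against 4.33% of all genes. Both KO libraries lay below both WT libraries for 15 of the 26, against 25% of all genes, and above them for 3, against 19.7% of all genes. The median log2 change was -0.27 over the tested members and -0.016 over all genes. Taken against the WT mean, the median was -0.18 for the first KO library and -0.32 for the second. After quantile normalization the genes at an unadjusted p under 0.05 split into 749 lower and 662 higher, where the values as deposited gave 919 and 536, and 19 members lay lower and 7 higher. The members were chosen with earlier results of these data known, so these counts are a description. In a bulk sample fewer cells of a type and less RNA per cell cannot be told apart. The count of 13 moved with the libraries used: leaving out WT replicate 2 made it 2 and leaving out WT replicate 1 made it 8. It was 9 when KO replicate 2 was left out and 15 when KO replicate 1 was.

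**Figure D2:**
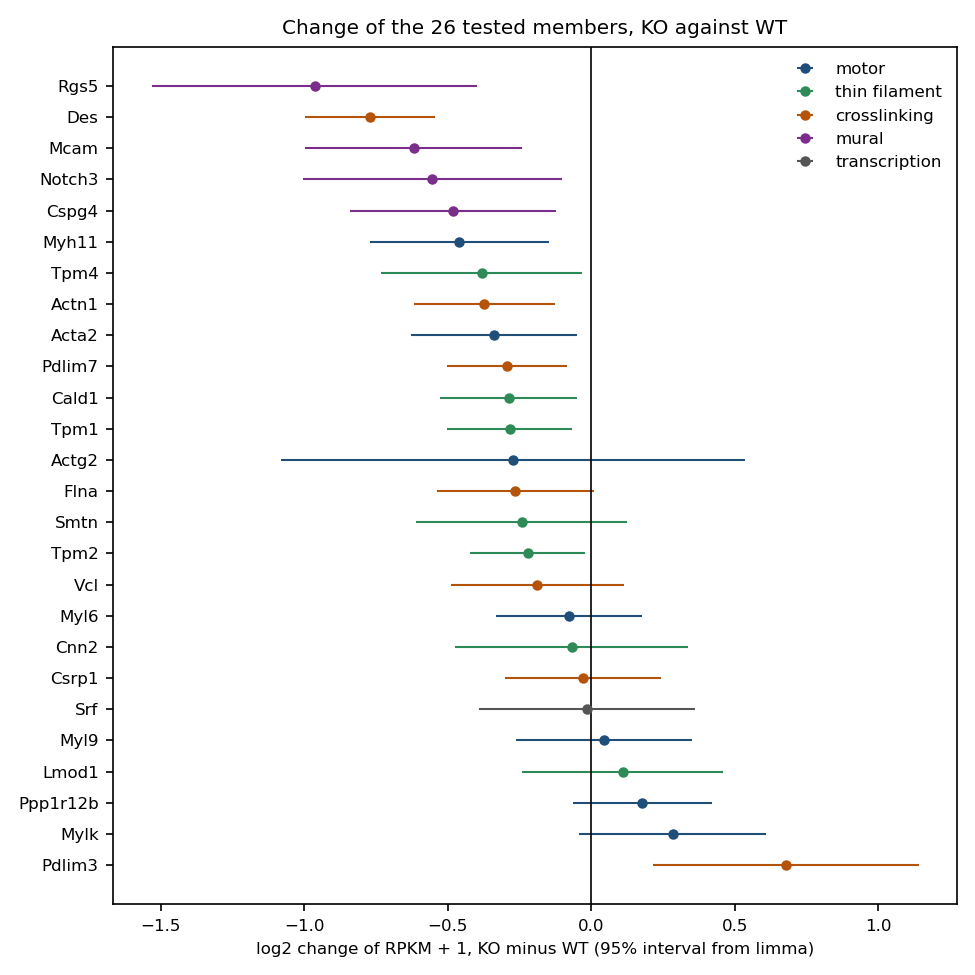
log2 change of RPKM + 1, KO minus WT (x axis), of the 26 tested members in order of size (y axis); points are limma estimates from 2 libraries per genotype, lines their 95% intervals, colours the roles. The 4 tested mural genes and Des have the lowest estimates, and Pdlim3 has the highest.

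The 2 transcription factors of the list lay far apart in level, and both overlapped between genotypes. Srf (serum response factor, chromosome 17, minus strand, 46548329 to 46556175 in GRCm38) was at 12.0 and 10.02 RPKM in WT and at 12.3 and 9.59 in KO. The genotypes overlapped, with replicate 1 of each above replicate 2 of each, and the log2 change was -0.016 ± 0.15 (SE), limma adjusted p = 0.977 (95% interval -0.39 to 0.36). Myocd had 0 and 5 WT reads and 1 and 0 KO reads, where a count of 0 allows up to 0.0337 RPKM in WT replicate 1 and 0.0236 in KO replicate 2, counting error only. In a list of 16 cofactors and muscle partners of the factor 13 were tested. Of these 9 were lower and 4 higher (median log2 change -0.10), and 0 had an unadjusted p under 0.05 in limma. Among these, Mef2c, a MADS-box factor, was at 2.86 and 3.07 RPKM in WT and at 3.39 and 4.26 in KO, and Hspb6, a small heat shock protein of muscle, was at 13.6 and 13.1 RPKM in WT and at 12.3 and 10.5 in KO. The actin-sensitive cofactors Mrtfa and Mrtfb, which carry the signal of free actin to serum response factor, had log2 changes of -0.11 and 0.082 and overlapped between genotypes.

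The promoters of the members show where the CArG box stands. The promoter table (RefSeq, GRCm38.p6) held 33 starts of 29 members, and the 250 bases before each start were searched. Actg2, Myh11, Tagln and Myocd had no promoter there and were not searched. A CArG box (CC, a core of A and T, then GG, a pattern that reads alike on both strands) was found for 5 members, Srf, Vcl, Cnn2, Myl9 and Myl6, and in 1.47% of all 32851 promoters. Srf itself had 2. A member was counted for a motif if any of its starts had it, while the shares are per promoter. For Myl6 the window 128493010 to 128493259 has the box and that of its other start, 128493887 to 128494136, has none. A CArG-like element, with exactly 1 letter of the core other than A or T, was found for Acta2, Myl9 and Pdlim3, and in 7.24% of all promoters. The 5 members with a CArG box had log2 changes between -0.19 and 0.04, with 0 at an unadjusted p under 0.05. The 12 lower members at that p that have a promoter in the table had 0 CArG boxes in the window, and Acta2 was the one with a CArG-like element. The remaining lower member at that p, Myh11, was not searched. The sequences below are those of 4 members with a CArG box and, for comparison, of Acta2 and of Des, the member with the smallest p. Each is the 250 bases before the start, 5′ to 3′ on the strand of the gene, and capitals mark CArG boxes and CArG-like elements, of which the Des window has none.
Srf, chr17:46556163-46556412, minus strand: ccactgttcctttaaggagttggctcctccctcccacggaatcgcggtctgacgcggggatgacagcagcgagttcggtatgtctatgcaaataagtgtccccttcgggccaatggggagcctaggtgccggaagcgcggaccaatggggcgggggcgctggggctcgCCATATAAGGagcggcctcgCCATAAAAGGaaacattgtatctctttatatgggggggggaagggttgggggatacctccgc
Vcl, chr14:20929148-20929397, plus strand: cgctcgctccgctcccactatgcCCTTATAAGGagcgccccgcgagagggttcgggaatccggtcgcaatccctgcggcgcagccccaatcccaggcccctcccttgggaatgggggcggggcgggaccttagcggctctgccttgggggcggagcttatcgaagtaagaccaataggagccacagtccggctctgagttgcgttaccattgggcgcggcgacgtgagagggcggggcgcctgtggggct
Cnn2, chr10:79988350-79988599, plus strand: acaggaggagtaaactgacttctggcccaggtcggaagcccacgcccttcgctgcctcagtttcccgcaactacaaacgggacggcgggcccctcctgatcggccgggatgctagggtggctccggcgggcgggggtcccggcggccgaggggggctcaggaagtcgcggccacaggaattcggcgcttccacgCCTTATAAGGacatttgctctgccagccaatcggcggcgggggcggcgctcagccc
Myl9, chr2:156775214-156775463, plus strand: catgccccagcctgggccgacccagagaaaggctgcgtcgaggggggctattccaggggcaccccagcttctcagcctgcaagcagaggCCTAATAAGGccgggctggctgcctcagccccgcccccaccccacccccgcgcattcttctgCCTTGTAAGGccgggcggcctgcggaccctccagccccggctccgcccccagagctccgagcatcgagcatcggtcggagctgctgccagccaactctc
Acta2, chr19:34255374-34255623, minus strand: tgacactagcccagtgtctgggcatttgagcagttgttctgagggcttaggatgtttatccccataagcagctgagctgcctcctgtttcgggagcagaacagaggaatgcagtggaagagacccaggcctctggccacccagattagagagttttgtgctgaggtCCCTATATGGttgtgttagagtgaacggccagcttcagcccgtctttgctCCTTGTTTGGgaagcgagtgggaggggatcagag
Des, chr1:75360042-75360291, plus strand: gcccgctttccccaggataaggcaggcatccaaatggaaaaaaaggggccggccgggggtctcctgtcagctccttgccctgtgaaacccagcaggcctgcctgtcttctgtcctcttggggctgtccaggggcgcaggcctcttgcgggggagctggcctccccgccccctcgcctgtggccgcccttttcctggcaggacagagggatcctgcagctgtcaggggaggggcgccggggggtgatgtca

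In Srf the boxes begin 82 and 62 bases before the start, and in Cnn2 and Vcl the same 10 letters, CCTTATAAGG, begin 56 and 227 bases before it. The Acta2 elements begin 84 and 34 bases before the start. The element CATTCC, read by TEAD factors and searched on both strands, was found for 10 members and in 12.6% of all promoters. Of the 12 lower members with a promoter 3 had it, Acta2, Cald1 and Tpm1, and so did Pdlim3, which was higher. A match is a run of letters and not a measured site, and its absence speaks only of these 250 bases.

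Among the motor genes the actin and the heavy chain of smooth muscle were lower in KO at an unadjusted p under 0.05, while the myosin light chains and their kinase were not. For Acta2 (chromosome 19, minus strand, 34241090 to 34255590), whose library values are given above, both KO libraries lay below both WT libraries. It averaged 219 ± 19.3 RPKM over the WT libraries and 173 ± 11.3 over the KO libraries (SD, n = 2), and the log2 change was -0.34 ± 0.11 (SE), limma adjusted p = 0.373. Cytoplasmic and muscle actins are nearly identical in sequence, and how the authors' counting divided shared reads is not stated, so the actin values are uncertain. Myh11 (chromosome 16, minus strand, 14194535 to 14291372) was at 2.48 and 2.90 RPKM in WT and at 1.71 and 1.65 in KO, again without overlap. The KO values sat close together and the log2 change was -0.46 ± 0.12 (SE), limma adjusted p = 0.306. Actg2, the enteric smooth muscle actin, was at 1.16 and 2.92 RPKM in WT and at 1.72 and 1.14 in KO. WT replicate 2 alone stood high there, the genotypes overlapped, and without that library the log2 change of -0.27 became 0.16.

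The light chains were abundant, and their genotypes overlapped. Myl6, the essential light chain shared with non-muscle myosin, was at 166 and 179.8 RPKM in WT and at 158 and 169 in KO. Myl9, the regulatory light chain that the kinase phosphorylates, was at 46.3 and 56.1 RPKM in WT and at 54.8 and 50.4 in KO. Both overlapped, with 95% intervals of the log2 change of -0.33 to 0.17 for Myl6 and -0.26 to 0.35 for Myl9. Leaving out 1 library moved the Myl6 change of -0.08 between -0.14 and -0.022. Mylk, the light chain kinase, was at 9.01 and 9.15 RPKM in WT and at 12.7 and 9.95 in KO, and both KO libraries lay above WT, the first of them further (log2 change 0.28 ± 0.13 (SE), limma adjusted p = 0.474). Without KO replicate 1 the Mylk change was 0.12. Ppp1r12b, a targeting subunit of the phosphatase that reverses the kinase, was at 4.84 and 4.33 RPKM in WT and at 5.41 and 5.20 in KO, with both KO libraries slightly above WT (log2 change 0.18 ± 0.09 (SE), limma adjusted p = 0.534). That change was 0.11 without WT replicate 2.

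Around this switch, 13 of 16 listed genes of myosin phosphorylation and calcium entry were tested, 8 of them lower and 5 higher (median log2 change -0.040). Of these 2 had an unadjusted p under 0.05, 1 lower (7.42% of all genes) and 1 higher in KO (4.33% of all genes). Myl12a, a non-muscle regulatory light chain, was at 167 and 183 RPKM in WT and at 140.1 and 113 in KO. Its neighbour in function Myl12b was at 125 and 131 RPKM in WT and at 124 and 126 in KO, and since the sequences are nearly identical the division of reads between the pair is uncertain. Gucy1a1, the alpha subunit of the nitric oxide receptor that relaxes smooth muscle, was at 4.11 and 3.63 RPKM in WT and at 5.11 and 7.04 in KO. The beta subunit Gucy1b1 lay the other way, at 0.846 and 1.06 RPKM in WT and 0.341 and 0.528 in KO, and only 1 library reached 1 RPKM, so it was not tested. The kinases Rock1 and Rock2, which hold the phosphatase in check, had log2 changes of 0.016 and -0.15.

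Thin filament genes were lower in KO for 4 of 7 tested members at an unadjusted p under 0.05 (7.42% of all genes). All 4 were tropomyosins or caldesmon. Tpm1 (chromosome 9, minus strand, 67022590 to 67049406) was at 96.7 and 94.9 RPKM in WT and at 81.1 and 75.8 in KO. It averaged 95.8 ± 1.28 RPKM over the WT libraries and 78.5 ± 3.75 over the KO libraries (SD, n = 2), and the log2 change was -0.29 ± 0.09 (SE), limma adjusted p = 0.343. Tpm2, the tropomyosin most tied to muscle, was at 49.7 and 51.3 RPKM in WT and at 43.9 and 42.4 in KO (log2 change -0.22 ± 0.08 (SE), limma adjusted p = 0.395). For Tpm4, a tropomyosin of non-muscle cells and the highest member of the list, the values were 349 and 309 RPKM in WT and 230.2 and 275 in KO (log2 change -0.38 ± 0.14 (SE), limma adjusted p = 0.398), and the change was -0.26 without KO replicate 1. Cald1 (caldesmon, which restrains myosin on the thin filament) was at 89.6 and 80.7 RPKM in WT and at 70.8 and 68.1 in KO (log2 change -0.29 ± 0.09 (SE), limma adjusted p = 0.365). None of these 4 genes overlapped between genotypes, and the KO means were between 76.8% and 85.5% of the WT means. Tropomyosin genes share long stretches of sequence, so the division of reads among them is uncertain.

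The remaining thin filament genes gave values on both sides. Cnn2, the calponin of non-muscle cells, was at 43.3 and 45.1 RPKM in WT and at 49.2 and 36.0 in KO, so that one KO library was highest and the other lowest. Without KO replicate 2 its log2 change of -0.07 became 0.15. Lmod1 (leiomodin, which nucleates actin filaments in smooth muscle) was at 8.45 and 8.49 RPKM in WT and at 10.6 and 8.01 in KO, with a change of 0.11 that became -0.07 without KO replicate 1. Smtn (smoothelin, of contractile smooth muscle) was at 5.52 and 7.27 RPKM in WT and at 5.56 and 4.87 in KO, with WT replicate 2 alone above the others, and 16.3% of its exonic bases are shared with Gm11946. Its log2 change of -0.24 was -0.072 without WT replicate 2. The 2 genes under the filter were both lower in KO. Tagln had 11 and 15 WT reads and 5 and 8 KO reads, or 0.3996 and 0.477 RPKM in WT and 0.160 and 0.204 in KO. Cnn1 had 18 and 30 WT reads and 14 and 12 KO reads, or 0.475 and 0.693 RPKM in WT and 0.326 and 0.222 in KO. At such counts the counting error is a large part of the value, and 62.4% of the exonic bases of Tagln are shared with an antisense gene, Gm48529, on the other strand, which was at 0.285 to 0.439 RPKM. A further 5.43% are shared with Pcsk7, also on the other strand and at 7.87 to 8.98 RPKM, so the Tagln values are uncertain. Whether counting used the strand is not given in the sources used here.

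Among filament and crosslinking genes desmin had the smallest p and lay lowest in KO relative to WT. Des (chromosome 1, plus strand, 75360329 to 75368579), the intermediate filament protein of muscle, was at 5.75 and 5.996 RPKM in WT and at 2.99 and 3.06 in KO, from 299, 356, 176 and 227 reads. The KO mean was 0.515 of the WT mean, the difference within each genotype was small beside it, and the log2 change was -0.77 ± 0.09 (SE), limma adjusted p = 0.124 (95% interval -0.999 to -0.546). It ranked 27 of 12391 genes by p, and over the alternatives its adjusted p ranged from 0.0581 to 0.662. Desmin is also made by skeletal and heart muscle. The 9 of 10 listed markers of these that were analysed here summed to between 0.445 and 0.623 RPKM per library. The highest of them, Myh6, was at 0.239 and 0.279 RPKM in WT and at 0.502 and 0.351 in KO. The skeletal actin Acta1 had 1 read in each WT library and 0 in each KO library, under the floor of 3 reads. The part of such muscle in the Des values was not tested.

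The crosslinkers were lower by less. Actn1 (alpha-actinin 1, which bundles actin at adhesions) was at 67.7 and 71.2 RPKM in WT and at 56.6 and 50.3 in KO (log2 change -0.37 ± 0.10 (SE), limma adjusted p = 0.295). Pdlim7, an adaptor of the actin skeleton, was at 12.2 and 11.4 RPKM in WT and at 9.28 and 9.64 in KO (log2 change -0.29 ± 0.08 (SE), limma adjusted p = 0.322). Both KO libraries were below both WT libraries in each. Flna (filamin A, on the X chromosome) was at 113 and 116 RPKM in WT and at 103 and 88.1 in KO, without overlap but with an unadjusted p above 0.05. Its log2 change of -0.26 was -0.16 without KO replicate 2. Vcl (vinculin, which couples integrins to actin) was at 7.48 and 8.05 RPKM in WT and at 7.43 and 6.01 in KO, with KO replicate 1 close to WT replicate 1 and a log2 change of -0.19 that was -0.056 without KO replicate 2. Of its exonic bases 25.5% are shared with Ap3m1 on the other strand, which was at 13.7 to 16.6 RPKM, so the Vcl values are uncertain. Csrp1, a LIM protein of smooth muscle, was at 58.8 and 62.8 RPKM in WT and at 64.3 and 55.1 in KO, with a 95% interval of -0.30 to 0.24 for the log2 change. Synpo2, an actin-binding protein of muscle, stayed between 0.0440 and 0.0921 RPKM.

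One member of this group ran against the rest. Pdlim3 (chromosome 8, plus strand, 45885461 to 45919548), an alpha-actinin-binding protein of muscle, was at 1.47 and 1.73 RPKM in WT and at 2.56 and 3.84 in KO, from 105, 141, 207 and 391 reads. Both KO libraries were above both WT libraries, and the log2 change was 0.68 ± 0.18 (SE), limma adjusted p = 0.314. Its 95% interval ran from 0.21 to 1.14 on the log2 scale. The KO libraries differed, the first lying 0.45 and the second 0.90 above the WT mean on that scale.

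The 2 matrix receptors did not reach 1 RPKM in any library. Itga1, the collagen receptor subunit found on smooth muscle, was at 0.920 and 0.952 RPKM in WT and at 0.946 and 0.838 in KO. Itga8, a receptor subunit for nephronectin and fibronectin, was at 0.529 and 0.661 RPKM in WT and at 0.337 and 0.906 in KO, where KO replicate 2 was highest and KO replicate 1 lowest. Their adhesion partners were tested more often, and 9 of 11 tested in a list of 12 lay lower (53.8% of all genes). The median log2 change was -0.13, and 3 were lower at an unadjusted p under 0.05 (7.42% of all genes). Zyx (zyxin, which repairs strained actin fibres) was at 34.9 and 35.4 RPKM in WT and at 31.1 and 27.1 in KO. Itga5, the fibronectin receptor subunit, was at 29.5 and 30.6 RPKM in WT and at 26.6 and 21.6 in KO. The third, Lims1, an adaptor of integrin-linked kinase, was at 45.6 and 37.9 RPKM in WT and at 31.3 and 35.2 in KO.

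The pericyte and mural genes had the lowest median of the role groups. All 4 tested members were lower in KO without overlap and at an unadjusted p under 0.05 (median log2 change -0.59). Of all genes 25% were lower without overlap and 7.42% were lower at that p. Rgs5 (chromosome 1, plus strand, 169655501 to 169695813), a brake on G protein signalling and a pericyte marker, was at 4.23 and 6.87 RPKM in WT and at 2.004 and 2.59 in KO. The spread was wide, above all within WT, and the log2 change was -0.96 ± 0.22 (SE), limma adjusted p = 0.272. Mcam (chromosome 9, plus strand, 44134469 to 44142727), an adhesion molecule of pericytes and endothelium, was at 1.92 and 2.30 RPKM in WT and at 1.14 and 0.906 in KO (log2 change -0.62 ± 0.15 (SE), limma adjusted p = 0.279). It passed the filter with 1 KO library at 1 RPKM or more, so its test leaned on the WT libraries. Notch3 (chromosome 17, minus strand, 32120820 to 32166852), the Notch receptor of vascular smooth muscle and pericytes, was at 1.78 and 2.67 RPKM in WT and at 1.21 and 1.14 in KO (log2 change -0.55 ± 0.18 (SE), limma adjusted p = 0.363). Without WT replicate 2 its log2 change was -0.35. Cspg4 (chromosome 9, plus strand, 56865033 to 56899870), the NG2 proteoglycan, was at 3.99 and 4.75 RPKM in WT and at 3.21 and 2.49 in KO (log2 change -0.48 ± 0.14 (SE), limma adjusted p = 0.336). Kcnmb1 had 4 and 15 WT reads and 0 and 3 KO reads, and a count of 0 allows up to 0.0456 RPKM in KO replicate 1. The summed level of the 5 genes was 12.0 and 16.8 RPKM in WT and 7.57 and 7.17 in KO.

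Other pericyte genes were lower in part. Of 15 listed genes 8 had both KO libraries below both WT libraries and 7 overlapped. Among the 9 tested genes 5 had both KO libraries below WT, against 25% of all genes tested. Vtn, Ndufa4l2 and Ebf2, also among the 8, were under the filter. The filter left 9 of the 15 for testing, 8 lying lower (53.8% of all genes) and 1 higher (median log2 change -0.35). Of the lower ones 4 had an unadjusted p under 0.05 (7.42% of all genes). Jag1, a Notch ligand, was at 7.78 and 7.99 RPKM in WT and at 5.89 and 4.90 in KO (log2 change -0.48 ± 0.11 (SE), limma adjusted p = 0.265). Heyl, a transcription factor switched on by Notch, was at 1.27 and 1.48 RPKM in WT and at 0.586 and 0.742 in KO, and it passed the filter through the WT libraries alone. Foxs1, a forkhead factor of perivascular cells, was at 10.7 and 9.74 RPKM in WT and at 8.31 and 5.67 in KO. Pdgfrb, the receptor through which endothelium recruits pericytes, was at 6.72 and 9.22 RPKM in WT and at 5.93 and 4.04 in KO. None of these 4 genes overlapped between genotypes. Kcnj8 and Abcc9, the subunits of the potassium channel of pericytes, had log2 changes of -0.083 and 0.05 and overlapped between genotypes.

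Endothelial markers lay lower in KO alongside the mural genes. All 10 listed markers lay lower in both KO libraries than in both WT libraries, against 25% of all genes tested, and none was at 0. Of the 10 only 3 reached the filter, 2 of them through the WT libraries alone. The share covers tested genes, and most of these markers were not tested. Their summed level was 21.3 and 23.7 RPKM in WT and 13.8 and 10.9 in KO. The junction gene Cdh5 was at 13.2 and 13.6 RPKM in WT and at 11.3 and 6.96 in KO, and the adhesion gene Pecam1 was at 0.858 and 1.16 RPKM in WT and at 0.338 and 0.561 in KO. The part of vessel content in the values of the mural genes was not tested. Fibroblast markers lay on both sides, and their sum was 309 and 340 RPKM in WT and 312 and 259 in KO. Of the 10 markers 6 had both KO libraries below both WT libraries and 2 above. Among the 7 tested, 3 lay below (25% of all genes tested) and 2 above (19.7%). At an unadjusted p under 0.05 the collagen genes Col1a1 and Col1a2 and the microfibril gene Mfap5 were lower (log2 changes -0.53, -0.50 and -0.71) and Pdgfra was higher (0.38). Macrophage markers, mostly Lyz2, summed to 1378 and 1042 RPKM in WT and 716 and 1135 in KO, so KO replicate 1 was lowest. Of 9 tested 8 were lower in KO (53.8% of all genes) and 1 higher, with a median log2 change of -0.40. None of them had an unadjusted p under 0.05. Taken against the WT mean, their median was -0.65 for KO replicate 1 and -0.053 for KO replicate 2. Leydig cell markers summed to 1712 and 1520 RPKM in WT and 1826 and 1938 in KO, a sum in which Hsd3b1 and Hsd3b6 were higher in KO. Others lay the other way: Insl3, a peptide hormone of Leydig cells, was at 164 and 133 RPKM in WT and at 73.0 and 81.5 in KO (log2 change -0.93), and the log2 changes of the cholesterol carrier Star and of Cyp11a1 were -0.41 and -0.31. Sertoli cell markers summed to 675 and 820 in WT and 779 and 641 in KO, and Clu alone was at 653 and 797 in WT and 759 and 627 in KO. Germ cell markers summed to 10.4 and 11.0 in WT and 15.8 and 13.0 in KO, and Zbtb16 alone was at 7.64 and 8.90 in WT and 11.6 and 9.03 in KO. Each of these 2 sums is mostly 1 gene and is not read as an amount of its cell type. Only 3 germ cell markers were tested, 2 of them passing the filter through the KO libraries alone. Immediate early and heat shock genes, listed because the handling of tissue can change them, were lower in all 13 of 13 tested (53.8% of all genes). Their sums were 405 and 380 RPKM in WT and 301 and 292 in KO, and the cause was not tested. Among them Gadd45b was at 34.6 and 35.1 RPKM in WT and at 21.8 and 23.0 in KO. The part of these lists in the member values was not tested.

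**Figure D3:**
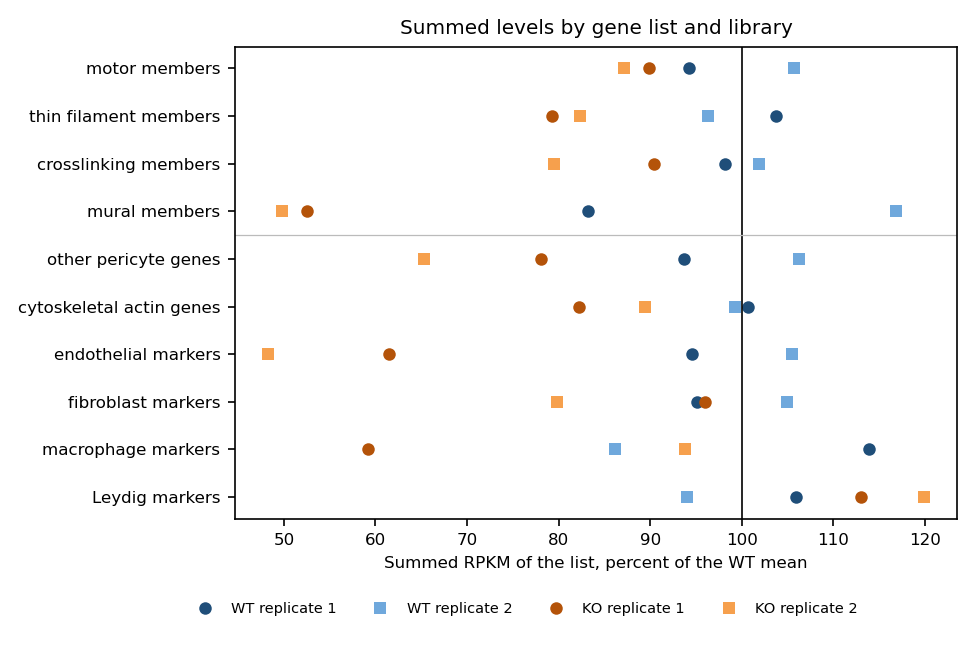
Summed RPKM of each gene list in each library as a percentage of the mean of the 2 WT sums (x axis), for 4 role groups of members (above the line) and for 6 other lists (below); circles and squares are replicates 1 and 2, blue is WT, orange is KO. The mural members stand at 52.6% and 49.8% in KO and the endothelial markers at 61.5% and 48.3%, while Leydig markers stand at 113% and 119.9%.

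Cytoskeletal actin genes that are not on the list lay lower too. All 10 of 10 tested lay lower (53.8% of all genes), with a median log2 change of -0.22. Of these 5 had an unadjusted p under 0.05 (7.42% of all genes). The members of 10 RPKM or more had a median of -0.24. Actb, the cytoplasmic beta-actin, was at 884 and 882 RPKM in WT and at 732 and 669 in KO, a log2 change of -0.34, which equals that of Acta2 to 2 decimals. Its gamma counterpart Actg1 was at 605 and 608 RPKM in WT and at 522 and 629 in KO. Cfl1 (cofilin, which severs actin filaments) was at 294 and 296 RPKM in WT and at 233 and 252 in KO, and Actn4 (alpha-actinin 4) was at 111 and 117 RPKM in WT and at 99.0 and 91.2 in KO. Actb, Cfl1 and Actn4 had an unadjusted p under 0.05 in limma, and 0 of the 10 passed an FDR of 0.05.

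The median difference was larger among the members of lower level, a split that also follows role. The 12 tested members with a mean below 10 RPKM had a median log2 change of -0.37, from -0.96 for Rgs5 to 0.68 for Pdlim3, and 9 were lower. All 4 tested mural genes (median -0.59) are among these 12. The others below 10 RPKM were Des (-0.77), Myh11 (-0.46), Actg2 (-0.27), Smtn (-0.24) and Vcl (-0.19). On the higher side were Lmod1 (0.11), Ppp1r12b (0.18) and Pdlim3 (0.68). These others lie on both sides of -0.24, the median at 10 RPKM or more, so the lower median of the 12 goes with the mural genes. The 14 members at 10 RPKM or more had a median of -0.24, from -0.38 for Tpm4 to 0.28 for Mylk, and 12 were lower. Over all genes tested the medians were -0.0024 below 10 RPKM and -0.035 at or above it. The median absolute log2 difference between replicates was 0.14 in WT and 0.17 in KO for the members, against 0.10 and 0.14 for all genes. Between genotypes the median absolute difference was 0.28 for the members and 0.12 for all genes.

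**Figure D4:**
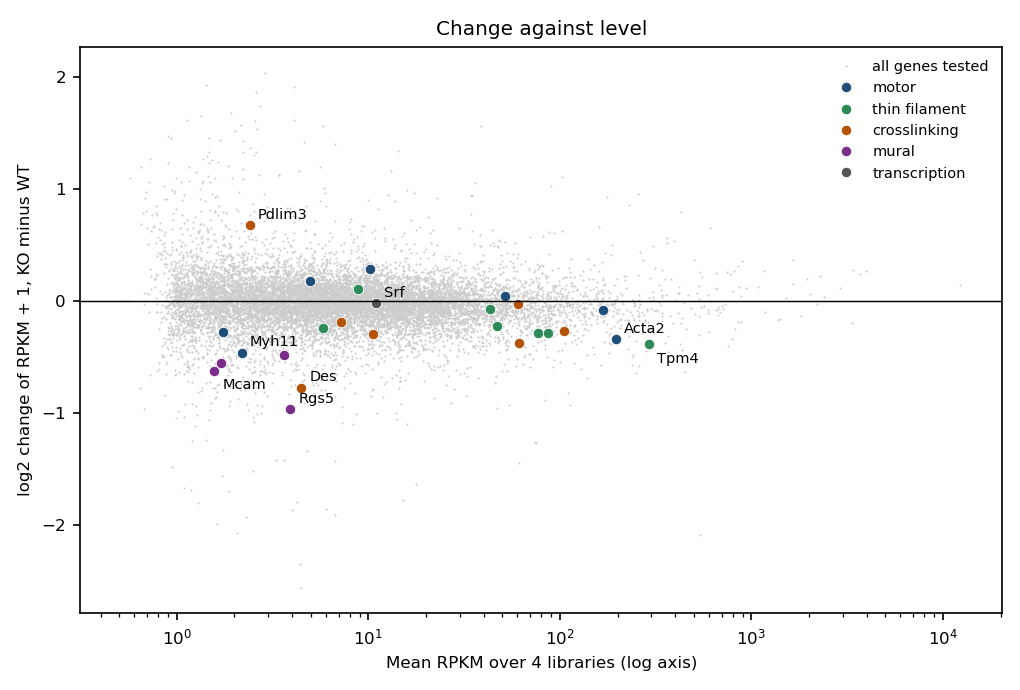
log2 change of RPKM + 1, KO minus WT (y axis), against the mean RPKM over 4 libraries (x axis, log scale) for all 12391 genes tested (grey) and for the 26 tested members (coloured by role). The mural members and Des lie low at 1 to 10 RPKM, Pdlim3 lies high, and Acta2 and Tpm4 lie below 0 at the right.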

How the data were processed

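Each deposited file gives 1 value per gene for 27357 Ensembl IDs of 1 library, under a header that names no unit. They were read as RPKM computed by the authors, an inference from the deposited values: multiplied by the exonic length in GENCODE M21, between 90.4% and 90.7% of the values above 0 are whole reads within 0.01. The submitters' processing notes name mm9, while the lengths and gene coordinates used here are those of GRCm38. Aligner and annotation: not given in the sources used here. Symbols and lengths were matched for 27306 IDs.

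A gene entered the test if 2 or more libraries reached 1 RPKM, which 12391 did. Values were put on the scale log2(RPKM + 1), where low genes show too small a change. The 2-sided tests came from limma 3.58.1 in R 4.3.3, with genotype as the one term, a mean-dependent prior variance and Benjamini-Hochberg adjustment over all genes. A pseudocount of 1 and an FDR of 0.05 were used. All log2 changes are on that scale. Members, lists and tests were chosen with earlier results of these data known. Named were members at an unadjusted p under 0.05, the defining genes, and up to 4 genes per other list by smallest p; Mrtfa, Mrtfb, Myl12b, Gucy1b1, Rock1, Rock2, Kcnj8, Abcc9, Actg1, S1pr3, Vtn and the named markers were added after their values were seen. Listed genes with no values here were not analysed, and 1 gene that the naming rule selects is not reported here. Counting floors are 3 reads. Python 3.11.15 with pandas 2.3.3 and NumPy 2.4.6 made the tables, and Matplotlib 3.10.9 drew the plots. The alternatives were another pseudocount, other filters, 2 rescalings, no trend, each library left out, a replicate block and voom on recovered reads.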

Additional observations from a re-analysis of the deposited data

How the results depend on the processing

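The lower direction of the members' median held under all 13 alternatives (log2 change -0.18 to -0.32), and 0 members passed an FDR of 0.05 under any, with a smallest adjusted p of 0.0581. Of 326 alternative values of single members 314 kept their direction. Voom on recovered reads covered 21 members. It left out Acta2, Myh11, Mylk, Notch3 and Srf, whose values were not whole reads in every library. It called 0 of 10856 genes (801 lower and 500 higher at an unadjusted p under 0.05). Counts moved more. The count of 13 members lower at an unadjusted p under 0.05 was 8 of 19 tested at a filter of 5 RPKM and 8 with a replicate block from a shared suffix of the sample labels, and it ran from 2 to 15 over the fits that leave out 1 library. The 1 higher member became 0 at the filter of 5 RPKM and ran from 0 to 3 with a library left out. Genes called at an FDR of 0.05 over all genes (0) ran from 0 to 74, with 74 without KO replicate 1 and 4 without KO replicate 2, where the lone KO library is assumed to vary like the WT pair. Deviations of libraries that share a suffix had a Pearson correlation of -0.0959 across genes, so the suffix was not taken as a pairing.

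The 12 reversed values belonged to 6 members whose genotypes overlapped, and the cause was not tested. With 1 library left out, Actg2 ran from -0.70 to 0.16, Myl9 from -0.093 to 0.18 (-0.016 without KO replicate 1), Cnn2 from -0.29 to 0.15, Lmod1 from -0.072 to 0.29, Csrp1 from -0.14 to 0.079 (0.017 without WT replicate 2) and Srf from -0.18 to 0.15 (0.10 without WT replicate 1). Under quantile normalization Csrp1 became 0.0016 and Srf 0.00059, and Srf was 0.0020 after trimmed-mean rescaling. Depth limits Tagln, Cnn1, Kcnmb1 and Myocd, which had 0 to 30 reads per library. It also limits Synpo2, whose values were not whole reads in every library. Synpo2 was at 0.0440 to 0.0921 RPKM, where the floors of 3 reads are 0.0116 to 0.0166 RPKM.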

Other observations

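Receptors for the agonists that contract smooth muscle and myoid cells lay on both sides. Of 12 listed 7 were tested, 5 lying lower in KO (53.8% of all genes) and 2 higher (median log2 change -0.34). Of the lower ones 2 had an unadjusted p under 0.05 in limma (7.42% of all genes). Agtr1a, the angiotensin receptor, was at 1.37 and 1.59 RPKM in WT and at 0.938 and 0.454 in KO, and it passed the filter through the WT libraries alone. The endothelin receptor Ednrb was at 1.72 and 1.53 RPKM in WT and at 0.521 and 1.09 in KO. Both KO libraries were lower than WT for each. Avpr1a, the vasopressin receptor and the most abundant of the group, was at 24.2 and 25.0 RPKM in WT and at 21.7 and 14.6 in KO, with KO replicate 2 lowest. Oxtr, the oxytocin receptor, was at 0.829 and 1.08 RPKM in WT and at 1.37 and 5.20 in KO, so that KO replicate 2 stood alone and its log2 change had a wide error (log2 change 0.97 ± 0.45 (SE), limma adjusted p = 0.490). The sphingosine phosphate receptor S1pr3 was at 13.4 and 15.5 RPKM in WT and at 17.5 and 7.09 in KO, where the KO libraries were the highest and the lowest of the 4. 

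Vtn (vitronectin), on the list of other pericyte genes and below the filter, had 13 and 14 WT reads (0.462 and 0.436 RPKM) and 1 read in each KO library, where the floors of 3 reads are 0.0942 and 0.0748 RPKM. It was chosen after its values were seen.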
